A study of Mus musculus with 17 samples.

Results

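The chemokines that draw T cells and monocytes to dendritic cells were measured here as 9 genes of the 31091 gene identifiers in the count table: Ccl2, Ccl3, Ccl4, Ccl5, Ccl17, Ccl22, Cxcl9, Cxcl10 and Cxcl16. They were chosen by name, for the cells their proteins attract, with no threshold on measured values. All 9 had counts in cDC1s, and 8 had counts in cDC2s.

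Bulk RNA sequencing was done on 17 samples of splenic conventional dendritic cells (cDCs) from female C57BL/6JRj mice of 8 weeks. The mice carried B16 tumors secreting FLT3 ligand, which expands cDCs, for 10 to 14 days, and spleens of at least 2 mice were pooled in an experiment. CD11c-enriched cells were kept for 6 h in culture with GM-CSF at 2 ng/mL and with medium collected from a culture of TC-1, a mouse lung carcinoma line, and were then sorted into XCR1+CD8α+ cDC1s and SIRPα+CD11b+ cDC2s. The study asked how debris of tumor cells that died in different ways acts on cDCs. Medium of live TC-1 WT cells was the control, TC-1-iBimS cells died by apoptosis through the BH3-only protein BimS, and TC-1-iRIPK3 cells died by necroptosis through a self-assembling RIPK3. All 3 TC-1 cultures, the control included, received cumate at 800 µg/mL for 24 h to switch on the transgene where there was one. The groups are named below by the TC-1 culture. Each of the 6 groups had 3 samples, except cDC2s with RIPK3, which had 2. Both cell types were sorted out of mixed cultures, so neither was exposed to debris without the other present. The FLT3 ligand, the GM-CSF and the cumate were common to all groups, so no group shows cDCs without them. The labels do not say whether samples of a group came from separate mice or cultures, so p-values measure only the spread between these samples.

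Chemokines are small secreted proteins that guide leukocytes along a gradient through receptors coupled to G proteins. Ccl2 recruits monocytes through Ccr2, whereas Ccl3, Ccl4 and Ccl5 draw T cells and monocytes, Ccl3 and Ccl5 among others through Ccr1. Ccl17 and Ccl22 bind Ccr4, by which dendritic cells reach regulatory and helper T cells. Cxcl9 and Cxcl10 are induced by interferons and bind Cxcr3 on effector T and NK cells, and Cxcl16 is a membrane-anchored ligand of Cxcr6 that can be shed.

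The libraries held 16095159 to 21645289 counts each (median 18986002). The sorted cells carried their own markers: 8 cDC1 marker genes summed to 1240 to 1410 counts per 1000000 (CPM) in cDC1s, and to group medians of 78.2 to 93.1 in cDC2s, and 8 cDC2 marker genes to 2.14 to 4.54 and 299 to 366. Of cells that make some of these chemokines themselves, 13 T and NK cell markers summed to 0.847 to 1.12 CPM in cDC1s with WT, 1.26 to 1.48 with BimS and 1.21 to 1.38 with RIPK3, and in cDC2s to 3.79 to 5.40, 2.33 to 3.65 and 3.69 to 3.93. Of these, Nkg7 and Ncr1 had no more than 1 count in any library, but others had more, such as Lck with up to 17, Gzma with up to 14 and Gzmb with up to 7. In cDC2s Gzma was at 0.382 CPM with WT, 0.333 with BimS and 0.669 with RIPK3. With BimS against WT, Cd5 was called higher in cDC1s (0.352 ± 0.176 to 0.857 ± 0.31 CPM), and Cd2 (1.11 ± 0.225 to 0.312 ± 0.142) and Cd3g (0.526 ± 0.156 to 0.111 ± 0.0473) lower in cDC2s. The 12 macrophage and monocyte markers summed to 138 to 192 CPM in cDC1s with WT, 185 to 207 with BimS and 184 to 247 with RIPK3, and in cDC2s to 67.5 to 90.8, 117 to 144 and 125 to 155. The higher sums with dying cells hold a rise of Spic, in cDC1s from 7.84 ± 1.25 CPM to 92.7 ± 14.7 with BimS and 58.5 ± 7.53 with RIPK3, whereas Fcgr1 fell there from 5.00 ± 0.673 to 2.43 ± 0.489 and 1.15 ± 0.213. Of 11 markers tested in cDC1s, 1 was called higher and 2 lower with BimS, and 1 higher and 1 lower with RIPK3, at medians of -0.81 and -0.31 on the log2 scale. Of 12 in cDC2s, 2 were called higher with either dying cell, Spic and Cd14, and Fcgr1 lower with RIPK3. The part of these markers in the members' differences was not tested. In bulk RNA, fewer cells of a type and less RNA per cell cannot be told apart.

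The members lie in 3 clusters and at one separate place on the mouse genome, given here in GRCm39. Cxcl9 (ENSMUSG00000029417, chr5:92469206-92475945) and Cxcl10 (ENSMUSG00000034855, chr5:92494497-92496748) lie on the minus strand, 18551 bases apart. Ccl22 (ENSMUSG00000031779, chr8:95471226-95478327) and Ccl17 (ENSMUSG00000031780, chr8:95534358-95538664) lie on the plus strand with 56030 bases between them. On chromosome 11, Ccl5 (ENSMUSG00000035042, chr11:83416602-83425942) and Ccl3 (ENSMUSG00000000982, chr11:83538670-83540191) are on the minus strand and Ccl4 (ENSMUSG00000018930, chr11:83553383-83555509) on the plus strand, 13191 bases from Ccl3. Ccl2 (ENSMUSG00000035385, chr11:81926397-81928279, plus strand) is 1488322 bases from Ccl5, and Cxcl16 (ENSMUSG00000018920, chr11:70344517-70352620, minus strand) is apart from the others. In the annotation, Ccl3 overlaps Gm53692, Ccl5 overlaps Gm73713, Cxcl10 overlaps Art3, and Cxcl16 overlaps Med11 and Zmynd15. Whether the counting used strand is not given in the sources used here, so reads shared with these genes are uncertain.

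The stretches before the start site are shown for the 4 members that passed the test in cDC1s with RIPK3, so that the letters of interferon and NF-κB elements can be read beside the values. They come from the RefSeq promoter table, which holds 5 of the 9 members (the fifth is Ccl17), and each was found unchanged in GRCm39. Capitals mark matches to the motifs searched on both strands in the 250 bases before the start: GAAANNGAA (interferon-stimulated response element core), TTCNNNGAA (gamma-activated site), GGANNTTCC (κB core), TGANTCA (AP-1) and TATAAA. Positions count back from the RefSeq start, whose neighbor upstream is -1.
Cxcl9: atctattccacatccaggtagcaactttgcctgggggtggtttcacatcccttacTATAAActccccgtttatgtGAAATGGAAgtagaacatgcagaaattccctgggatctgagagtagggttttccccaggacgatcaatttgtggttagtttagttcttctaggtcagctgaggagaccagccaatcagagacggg
Cxcl10: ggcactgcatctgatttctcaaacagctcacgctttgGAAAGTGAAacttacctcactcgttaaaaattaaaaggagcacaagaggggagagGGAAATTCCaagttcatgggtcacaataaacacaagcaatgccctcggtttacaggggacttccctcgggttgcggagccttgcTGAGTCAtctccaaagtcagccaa
Ccl22: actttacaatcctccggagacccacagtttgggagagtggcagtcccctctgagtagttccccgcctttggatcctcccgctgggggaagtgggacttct
Ccl3: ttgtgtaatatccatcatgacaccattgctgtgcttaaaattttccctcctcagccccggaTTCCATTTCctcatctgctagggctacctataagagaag
The Cxcl9 stretch is chr5:92475989-92476188 on the minus strand, outside any annotated gene, at -250 to -51. Its GAAATGGAA stands at -175 to -167 and its TATAAA at -195 to -190. The Cxcl10 stretch is chr5:92496799-92496998 on the minus strand at -250 to -51, in an intron of Art3, with GAAAGTGAA at -213 to -205, GGAAATTCC at -158 to -150 and TGAGTCA at -74 to -68. The Ccl22 stretch, chr8:95472112-95472211 on the plus strand at -200 to -101, lies in an intron of Ccl22 as annotated by GENCODE and has no capitals, since none of the 5 motifs was found in the 250 bases. The Ccl3 stretch is chr11:83540205-83540304 on the minus strand at -100 to -1, over an exon of Gm53692 on the other strand, and TTCCATTTC at -39 to -31 reads as GAAANNGAA on the opposite strand. Among the 32851 promoters of the table, 7.13% hold GAAANNGAA, 7.02% TTCNNNGAA, 3.59% GGANNTTCC, 6.75% TGANTCA and 12.4% TATAAA. A match describes the letters and does not show that a factor binds there.

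Levels between genes were compared as CPM per kilobase of exon. In cDC1s with WT, Cxcl16 led with 157 ± 6.77 CPM per kb (SD, n = 3), followed by Ccl22 with 64.3 ± 13.6, Cxcl9 with 19.8 to 20.2 and Ccl5 with 19.6 ± 1.61. Cxcl9 and Ccl5 overlapped there, and Ccl4, Cxcl10, Ccl17, Ccl3 and Ccl2 followed at 6.49, 3.73, 2.05, 0.948 and 0.211. In cDC2s with WT, Cxcl16 at 67.0 ± 2.97 and Ccl5 at 55.2 ± 9.14 overlapped at the top, above Ccl22 at 27.5 and Cxcl10 at 5.22. Ccl4, Ccl3, Cxcl9 and Ccl17 lay between 1.32 and 0.623 with each overlapping its neighbor, and Ccl2 had no counts. The T-cell ligand Cxcl9 thus held the third place in cDC1s with WT and the seventh in cDC2s with WT. In cDC1s with BimS and RIPK3 it was the fourth, at 17.6 and 13.5 CPM per kb below Ccl5 at 21.8 in both, with ranges that did not overlap. As the summed level of the 9 members shifted with the medium, the share of Cxcl16 went from 57.2% to 65.3% between cDC1s with WT and with RIPK3 and from 42.2% to 49.3% in cDC2s, while that of Ccl22 went from 23.4% to 13.9% and from 17.3% to 7.39%.

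**Figure D1:**
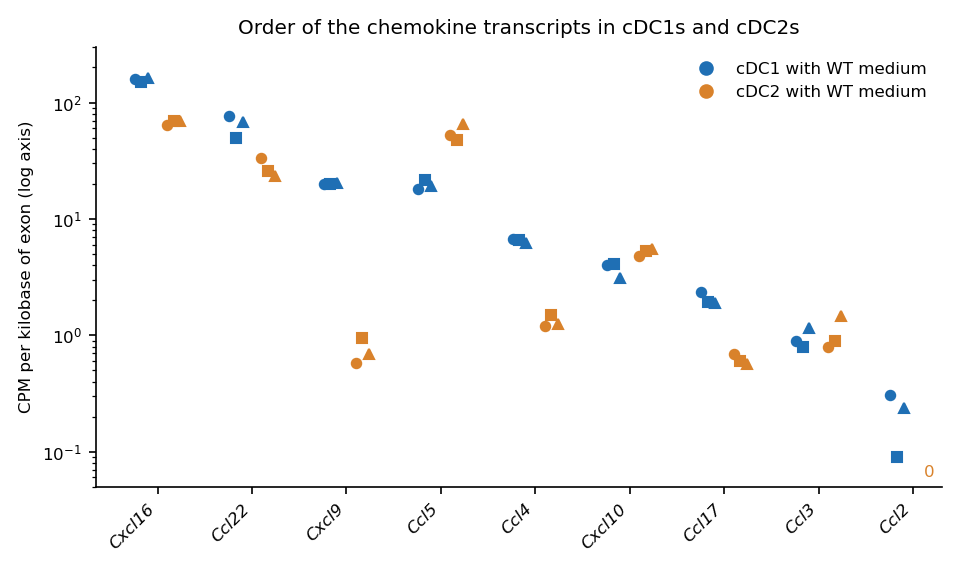
Level of each of the 9 members in cDC1s and cDC2s with WT medium, as CPM per kilobase of exon on a log axis, where each point is a sample and its shape the replicate number. Cxcl16 leads in cDC1s (mean 157) and cDC2s (67.0), Cxcl9 lies far apart between the cell types, and the 0 marks Ccl2 in cDC2s, which had no counts.

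cDC1s and cDC2s with WT medium differed in their levels of most of these chemokines. The test across all genes called 8808 of 19082 genes between the cell types with WT (46.2%), a high background for any list. Of the 9 members, 8 were called at an adjusted p under 0.05 by edgeR's quasi-likelihood test with Benjamini-Hochberg adjustment, Ccl3 being the exception. The median log2 difference, cDC1 over cDC2, was 1.23 over the members and 0.01 over all genes tested.

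Cxcl9 showed the widest gap of the fitted members. It was at 59.9, 59.9 and 61.2 CPM in the 3 cDC1 samples with WT and at 1.74, 2.87 and 2.10 in the cDC2 samples. Every cDC1 sample was far above every cDC2 sample, a log2 difference of 4.76 with a standard error (SE) of 0.142 (adjusted p = 2.22e-21). Ccl4, an attractant of T cells and monocytes, was at 4.63, 4.53 and 4.22 CPM in cDC1s and at 0.821, 1.03 and 0.863 in cDC2s, which also did not overlap (2.30, SE 0.244, adjusted p = 4.2e-09). Cxcl16 was at 814, 765 and 832 CPM against 326, 352 and 352 (1.23, SE 0.063, adjusted p = 5.22e-16). The Ccr4 ligands were higher in cDC1s as well: Ccl17 by 1.69 on the log2 scale (SE 0.416, adjusted p = 0.00117) and Ccl22 by 1.22 (SE 0.274, adjusted p = 0.0027).

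Ccl2 was found in cDC1s only at very low counts. The cDC1 samples held 7, 2 and 6 Ccl2 counts with WT, 4, 3 and 7 with BimS and 10, 9 and 15 with RIPK3, 63 in all, and the 8 cDC2 samples held 0, which allows up to 0.0213 CPM over them. Taking 3 counts over the group as the limit for 0, Ccl2 was at least 4.47-fold higher in cDC1s than in cDC2s with WT (adjusted p = 0.00189), at least 4.08-fold with BimS and at least 6.46-fold with RIPK3. These limits cover counting error only.

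Ccl5 and Cxcl10 went the other way. Ccl5, which acts on T cells and monocytes alike, was at 53.6, 49.3 and 67.3 CPM in cDC2s with WT and at 18.7, 21.9 and 19.8 in cDC1s, all cDC2 samples being higher (-1.50, SE 0.17, adjusted p = 2.75e-06). Cxcl10 was at 10.8, 11.9 and 12.5 CPM in cDC2s and at 9.07, 9.16 and 7.01 in cDC1s. The groups did not overlap, but the gap was small (-0.49, SE 0.121, adjusted p = 0.00136) and was not called by limma on unnormalized log2 counts (adjusted p = 0.0976). Ccl3 did not differ beyond its spread (0.735 ± 0.148 CPM in cDC1s and 0.812 ± 0.28 in cDC2s, SD, n = 3, adjusted p = 0.844).

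**Figure D2:**
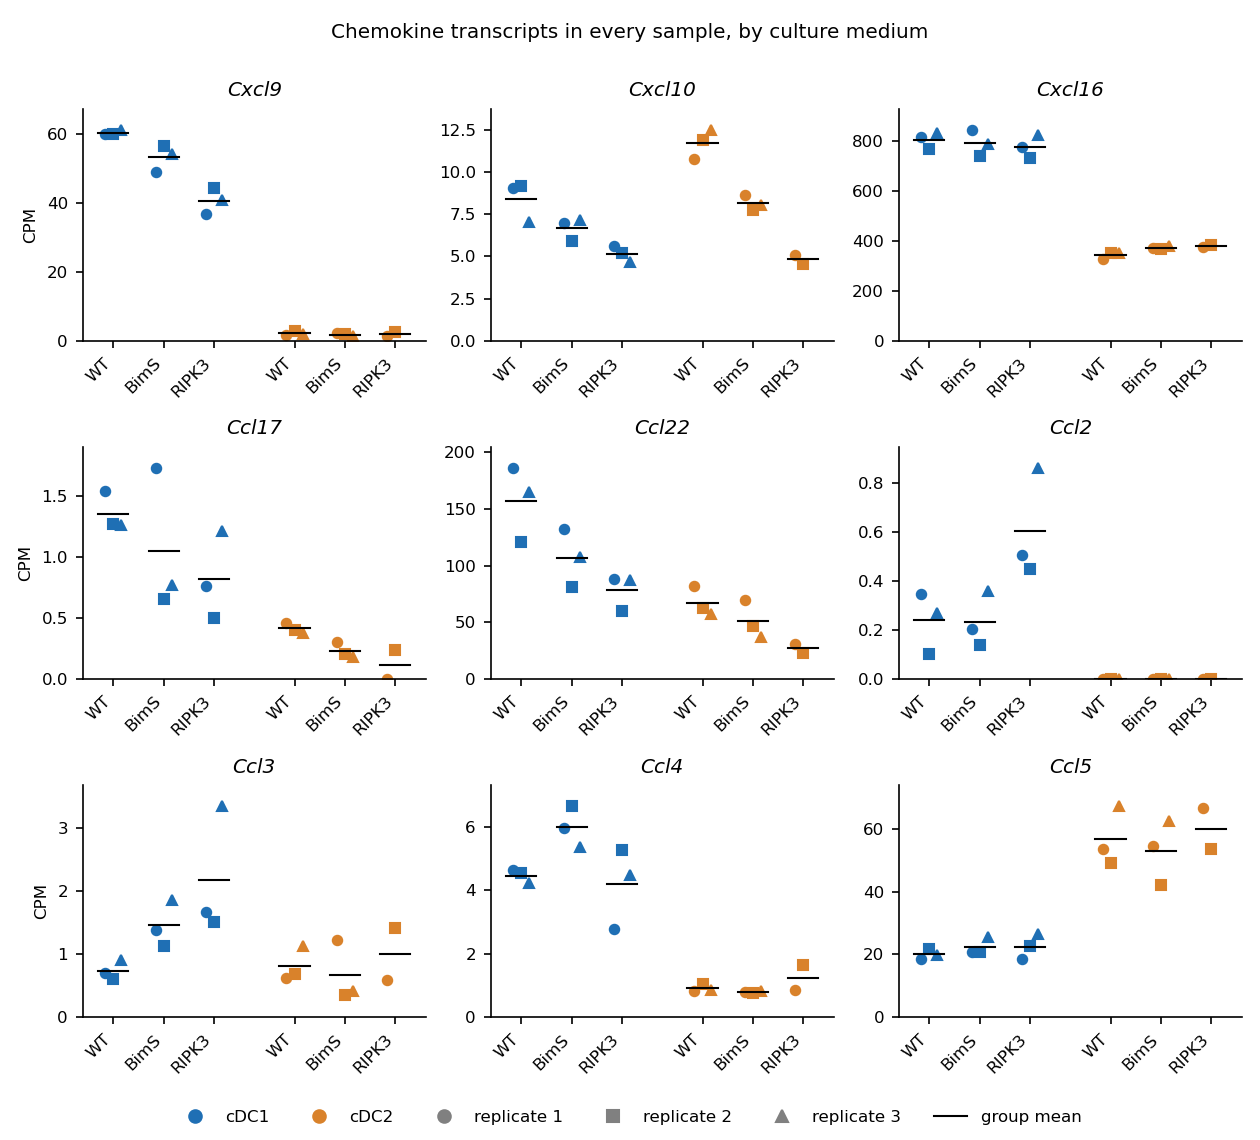
CPM of each member in each of the 17 samples, by cell type and TC-1 culture medium, with 1 panel per gene on its own linear axis, points as samples and bars as group means. Cxcl9 goes from 59.9 to 61.2 CPM in cDC1s with WT to 36.8 to 44.3 with RIPK3, while all cDC2 samples lie at 1.25 to 2.87.

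The interferon-induced pair fell in cDC1s with RIPK3. Over all genes, 3226 of 19513 were called between cDC1s with RIPK3 and with WT (16.5%), and 8.19% were called lower. Of the members, 4 of 9 were called: Cxcl9, Cxcl10 and Ccl22, which fell, and Ccl3, which rose. The median log2 fold change of the members was -0.09, beside -0.01 over all genes. In cDC1s with BimS, 13.2% of genes were called against WT, 5.89% lower, and 0 of the 9 members were called by edgeR. At an unadjusted p under 0.05 there were 4 members, DESeq2 called 0, limma 2 and the fit with the replicate number as a block 5. The comparisons of BimS and of RIPK3 share the WT samples, so their values are set side by side and not counted against each other.

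Cxcl9 in cDC1s was at 59.9, 59.9 and 61.2 CPM with WT, at 49.1, 56.6 and 54.3 with BimS and at 36.8, 44.3 and 40.9 with RIPK3. The 3 groups formed 3 separate ranges with WT highest and RIPK3 lowest. The log2 fold change was -0.57 with RIPK3 against WT (SE 0.0663, 95% interval -0.70 to -0.44, adjusted p = 2.09e-08). It stayed called without any single cDC1 sample and under all 7 other settings. With BimS it was -0.18 (SE 0.0648, adjusted p = 0.0683), a difference that passed under 2 of 7 other settings, the block among them (adjusted p = 0.00901), and when BimS replicate 2 (0.0298) or RIPK3 replicate 1 (0.0336), 2 (0.0472) or 3 (0.0225) was left out. Between the dying cells themselves, 4.15% of genes were called, 2.21% lower with RIPK3, and 1 of 9 members was called, which was Cxcl9 (-0.39, SE 0.0669, 95% interval -0.52 to -0.26, adjusted p = 0.000243).

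Cxcl10, the other Cxcr3 ligand, was at 9.07, 9.16 and 7.01 CPM in cDC1s with WT, 6.98, 5.94 and 7.17 with BimS and 5.61, 5.22 and 4.66 with RIPK3. All RIPK3 samples were below all others, while the BimS and WT ranges met at about 7 CPM through WT replicate 3. Against WT it fell by 0.69 on the log2 scale with RIPK3 (SE 0.136, 95% interval -0.96 to -0.43, adjusted p = 0.000208), in every leave-one-out fit and setting run. With BimS the fold change was -0.33 (SE 0.13, adjusted p = 0.101), called without WT replicate 3 (0.0304) and with the block (0.042). RIPK3 against BimS gave -0.37 (SE 0.141, adjusted p = 0.16), although the groups did not overlap.

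The Ccr4 ligands were lower on average with dying cells, with a wide spread. Ccl22 in cDC1s was at 186, 121 and 165 CPM with WT, 132, 80.9 and 108 with BimS and 88.0, 60.1 and 87.1 with RIPK3. Replicate 2 was the lowest of its group in all 3 groups, and the RIPK3 samples lay below all WT samples. The fold change of RIPK3 against WT was -1.005 on the log2 scale (SE 0.262, adjusted p = 0.0485, with a 95% interval of -1.52 to -0.49 that is too narrow for this gene). That call rests on the full set of samples: it was lost without WT replicate 1 (0.147) or 3 (0.137), BimS replicate 1 (0.0511) or 3 (0.0862), or RIPK3 replicate 1 (0.0902), 2 (0.136) or 3 (0.0877), and 6 of 7 other settings made it.

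Read within a replicate number, Ccl22 was much steadier. The RIPK3 sample held 0.473 to 0.529 of the Ccl22 CPM of the same-numbered WT sample, and the BimS sample 0.653 to 0.709. With the number as a block, BimS against WT gave -0.56 on the log2 scale (SE 0.046), with an adjusted p of 1.2e-21 in place of 0.273, and that of RIPK3 against BimS was -0.44 (SE 0.0481), with 2.24e-13 in place of 0.519. That fit takes the spread of Ccl22 mostly from all genes together, with 133 prior against 4 residual degrees of freedom, so the size of these p-values is not a measure of how well this gene repeats. Ccl17 was at 1.54, 1.27 and 1.26 CPM with WT, 1.73, 0.654 and 0.773 with BimS and 0.759, 0.502 and 1.21 with RIPK3. All RIPK3 samples were below all WT samples (-0.74, SE 0.343, adjusted p = 0.159), and the difference was called only without RIPK3 replicate 3 (0.0308) and by 1 of 7 other settings.

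**Figure D3:**
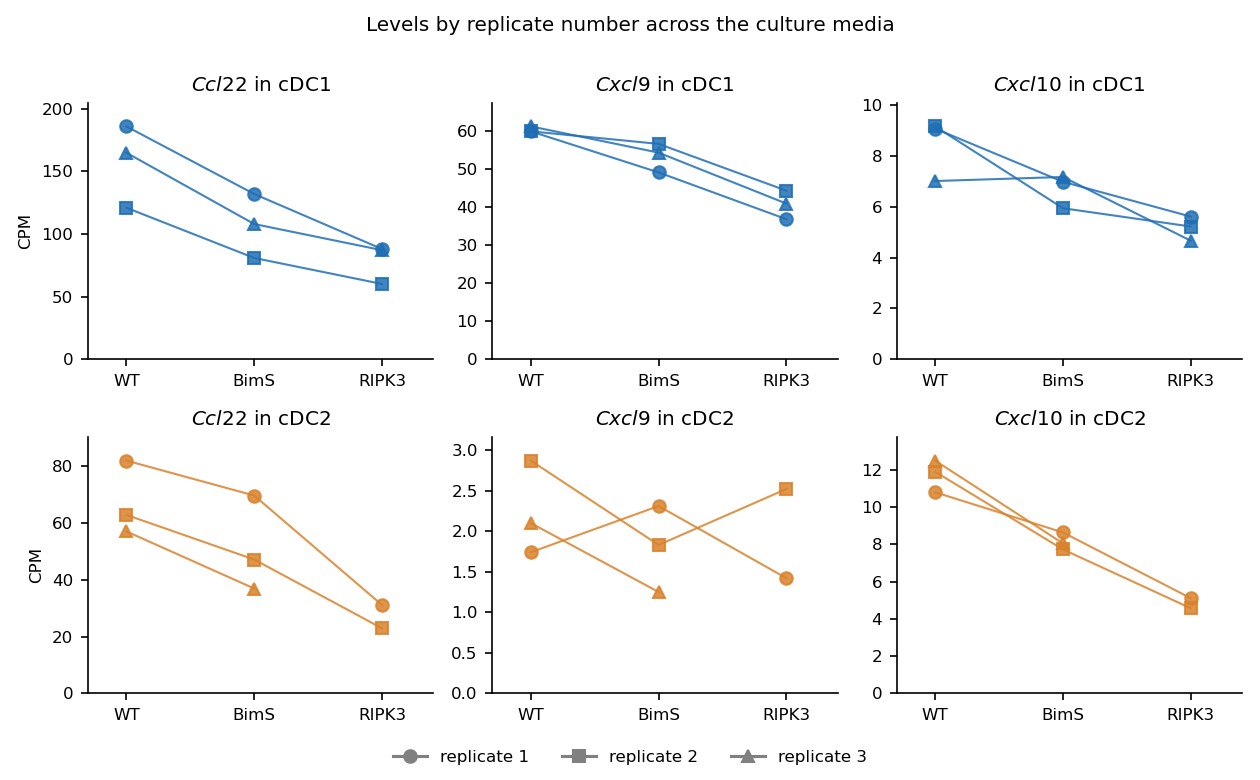
CPM of Ccl22, Cxcl9 and Cxcl10 in cDC1s and cDC2s against the TC-1 culture medium, with lines joining samples that carry the same replicate number in the labels. The Ccl22 lines in cDC1s all go down, from 121, 165 and 186 CPM with WT to 60.1, 87.1 and 88.0 with RIPK3, and replicate 3 of cDC2s ends at BimS.

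Of the neighbors Ccl3 and Ccl4, Ccl3 rose with RIPK3. It was at 0.697, 0.610 and 0.898 CPM in cDC1s with WT, 1.38, 1.12 and 1.86 with BimS and 1.67, 1.51 and 3.34 with RIPK3. Every sample with dying cells was above every WT sample, and the highest was RIPK3 replicate 3. The log2 fold change was 1.52 with RIPK3 (SE 0.312, 95% interval 0.91 to 2.13, adjusted p = 0.000423), called in every leave-one-out fit and setting run. With BimS it was 0.96 (SE 0.33, adjusted p = 0.051), just outside the threshold, and it was called by 4 of 7 other settings, the block (0.00847) among them, and without BimS replicate 2 (0.0278) or RIPK3 replicate 1 (0.0384), 2 (0.0338) or 3 (0.0171). Ccl3 was low throughout, below 4 CPM in all samples, so its values rest on few counts.

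Ccl4, the neighbor of Ccl3, had another order. It was at 4.63, 4.53 and 4.22 CPM with WT, 5.96, 6.64 and 5.36 with BimS and 2.78, 5.27 and 4.49 with RIPK3. The BimS samples were above all others, and the RIPK3 samples spread on both sides of WT. The fold changes were 0.43 for BimS against WT (SE 0.164, adjusted p = 0.0866) and -0.52 for RIPK3 against BimS (SE 0.168, 95% interval -0.85 to -0.19, adjusted p = 0.075). The first was called with the block (0.0255) and without RIPK3 replicate 1 (0.04), the second by 3 of 7 other settings, the block among them (0.00941), and without RIPK3 replicate 2 (0.0159). RIPK3 against WT was -0.09 (adjusted p = 0.814).

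Ccl2 was higher with RIPK3 than with WT in all 3 replicate numbers, at 1.45 to 4.44 times the WT level, but from 2 to 15 counts per sample. Its log2 fold change of 1.29 (SE 0.508, 95% interval 0.29 to 2.28) had an adjusted p of 0.0819. Against BimS it was 1.34 (SE 0.515, adjusted p = 0.16), and in neither comparison did the RIPK3 samples overlap the others. Ccl5 and Cxcl16 were not called in any comparison of media in cDC1s. Ccl5 was at 18.7 to 21.9 CPM with WT, 20.7 to 25.7 with BimS and 18.4 to 26.4 with RIPK3, and RIPK3 against WT was 0.15 on the log2 scale (95% interval -0.08 to 0.38, adjusted p = 0.481), called only without RIPK3 replicate 1 (0.0455). Cxcl16, the most abundant member, was at 765 to 832 CPM with WT and 731 to 821 with RIPK3. Its interval of -0.15 to 0.05 on the log2 scale bounds any difference to a small one (-0.05, adjusted p = 0.586), and that for BimS was -0.12 to 0.07.

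**Figure D4:**
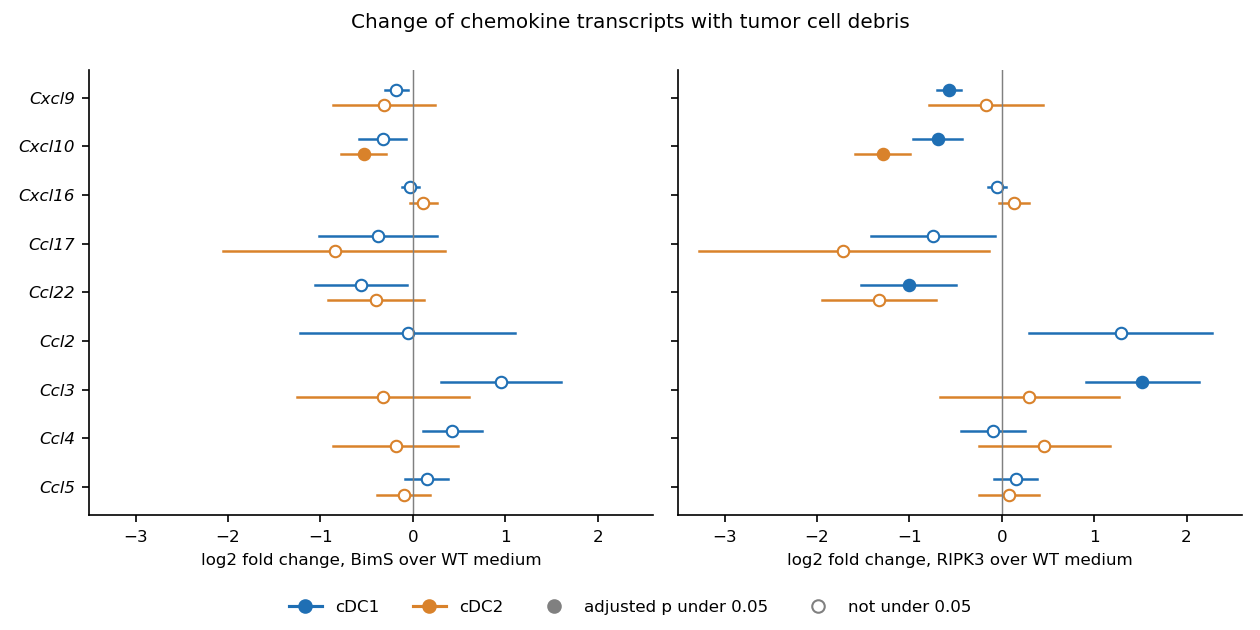
Log2 fold changes of the members with BimS and with RIPK3 over WT medium, in cDC1s and cDC2s, with bars as 95% intervals and filled points where the adjusted p was under 0.05. With RIPK3, Ccl3 is filled on the higher side in cDC1s (1.52) and Cxcl10 on the lower side in both cell types (-0.69 and -1.29), and Ccl2 is not drawn for cDC2s, where it had no counts. The bars assume a normal error and are too narrow for Ccl22.

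In cDC2s, Cxcl10 was the member called by edgeR, and Ccl22 had a log2 fold change of like size with RIPK3 that missed the threshold. Over all genes, 7.01% were called with BimS against WT (3.21% lower), 7.21% with RIPK3 against WT (3.28% lower) and 0.379% with RIPK3 against BimS (0.218% lower), and in each of these 1 of 8 tested members was called. The members' median log2 fold changes were -0.32, -0.05 and 0.08, beside -0.02, -0.02 and 0.00 or slightly below over all genes. Cxcl10 was at 10.8, 11.9 and 12.5 CPM with WT, 8.64, 7.73 and 8.05 with BimS and 5.11 and 4.57 with RIPK3. The 3 ranges were separate, in the order WT, BimS, RIPK3. It fell by 1.29 on the log2 scale with RIPK3 (SE 0.155, 95% interval -1.59 to -0.99, adjusted p = 1.08e-05), in every leave-one-out fit and setting run.

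The smaller steps of Cxcl10 in cDC2s were less firm. With BimS the log2 fold change was -0.53 (SE 0.127, 95% interval -0.78 to -0.29, adjusted p = 0.0114), which was lost without WT replicate 2 (0.0597) or BimS replicate 2 (0.0649). RIPK3 against BimS was -0.76 (SE 0.159, 95% interval -1.07 to -0.45, adjusted p = 0.0412). This last call was lost without WT replicate 2 (0.0849), BimS replicate 1 (0.187), 2 (0.0922) or 3 (0.0736), or RIPK3 replicate 1 (0.188) or 2 (0.717), and under edgeR's own expression filter (0.0569). Leaving out 1 RIPK3 sample leaves a single one, which is then assumed to vary like the other groups.

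Ccl22 in cDC2s was at 81.9, 62.8 and 57.0 CPM with WT, 69.6, 47.1 and 36.9 with BimS and 31.1 and 22.9 with RIPK3. Both RIPK3 samples were below all others, and replicate 1 was the highest of every group. RIPK3 against WT was -1.33 on the log2 scale (SE 0.316, adjusted p = 0.0595, with a 95% interval of -1.95 to -0.71 that is again too narrow). It was called without BimS replicate 1 (0.00105) or 3 (0.0105) and by 5 of 7 other settings, which include the block (-1.48, SE 0.0731, adjusted p = 1.05e-88). Within a number, the RIPK3 sample held 0.364 and 0.380 of the WT level. The block also called BimS against WT (-0.41, SE 0.0562, 5.35e-12 in place of 0.527) and RIPK3 against BimS (-1.07, SE 0.0742, 1.17e-43 in place of 0.48), again with a spread taken from all genes.

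Ccl17 in cDC2s was below 0.5 CPM in every sample, at 0.462, 0.402 and 0.378 with WT, 0.304, 0.203 and 0.179 with BimS and 0 and 0.234 with RIPK3. The WT samples were the highest, but RIPK3 against WT was not called (-1.71, SE 0.801, adjusted p = 0.258). It was -0.81 without RIPK3 replicate 1, the sample at 0, and -5.90 without replicate 2, a fit that then rests on that 0 and is no measure of size. Of 5 other settings, limma called it (adjusted p = 0.0343). Cxcl9 stayed at 1.25 to 2.87 CPM in all cDC2 samples (RIPK3 against WT -0.17, 95% interval -0.79 to 0.45, adjusted p = 0.859), an interval that includes the value found in cDC1s. Ccl3 was at 0.356 to 1.41 CPM and Ccl4 at 0.763 to 1.64. Of the RIPK3 samples of Ccl4, replicate 1 (0.841) was just above those with BimS (0.763 to 0.835) and replicate 2 (1.64) well above. The log2 fold change was 0.64 (SE 0.37, adjusted p = 0.661) and ran from 0.07 to 1.04 without 1 sample.

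Cxcl16 in cDC2s was at 326, 352 and 352 CPM with WT, 369, 368 and 377 with BimS and 374 and 382 with RIPK3. Every sample with dying cells was above every WT sample, by a small step: 0.11 with BimS (SE 0.0734, adjusted p = 0.47) and 0.13 with RIPK3 (SE 0.0819, adjusted p = 0.453). The block called both (0.0291 and 0.0187). Ccl5 was at 49.3 to 67.3 CPM with WT, 42.1 to 62.5 with BimS and 53.7 to 66.7 with RIPK3, ranges that overlap. Only with the block was Ccl5 called, with RIPK3 against WT (adjusted p = 0.0107 in place of 0.894) and against BimS (7.27e-05 in place of 0.818).

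Whether a medium acted differently on the cell types was tested as an interaction, and 0 of 8 members were called in any of the 3 tests. Ccl2, with no counts in cDC2s, could not be tested this way. Over all genes 0.87% were called for BimS against WT, 1.14% for RIPK3 against WT and 0.0314% for RIPK3 against BimS. At an unadjusted p under 0.05 there were 0, 2 and 1 members, and DESeq2, limma and the block called 0 in each. The nearest was Cxcl10 with RIPK3, whose log2 fold change was 0.59 higher in cDC1s than in cDC2s, that is less of a fall (SE 0.205, 95% interval 0.18 to 0.99, adjusted p = 0.255). For Cxcl9 with RIPK3, the difference was -0.41 (SE 0.274, adjusted p = 0.76). The fall called in cDC1s was thus not shown to differ from the change in cDC2s, where no fall was called. Ccl3 differed by 1.21 with RIPK3 (SE 0.63, adjusted p = 0.633), Ccl22 by 0.32 (SE 0.429, adjusted p = 0.918), and Ccl4 between RIPK3 and BimS by -1.18 (SE 0.405, 95% interval -1.97 to -0.38, adjusted p = 0.729). Without 1 sample these differences ran from 0.73 to 2.0 for Ccl3, 0.11 to 0.55 for Ccl22 and -1.56 to -0.6 for Ccl4.

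Ordered over the 6 groups by mean CPM, Ccl17 and Ccl22 had the same order: cDC1s with WT, BimS and RIPK3, then cDC2s with WT, BimS and RIPK3. Cxcl9 had that order in cDC1s, and in cDC2s it ran WT, RIPK3, BimS, with neighbors that overlapped. For Cxcl9 the ranges of the first 4 groups (WT, BimS and RIPK3 in cDC1s, then WT in cDC2s) were separate from each other. For Ccl22 the only neighbors that did not overlap were cDC2s with BimS (51.2 ± 16.8 CPM, SD, n = 3) and with RIPK3 (27.0 ± 5.84, SD, n = 2). Cxcl10 began with cDC2s with WT (11.8 ± 0.859) and ended with cDC2s with RIPK3 (4.84 ± 0.381), whose values overlapped those of cDC1s with RIPK3 (5.17 ± 0.479). For Ccl3 every neighboring pair overlapped.

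Other genes that interferons induce fell too. Of 25 such genes outside the members, 7 fell and 0 rose in cDC1s with BimS, and 19 fell and 0 rose with RIPK3, at median log2 fold changes of -0.42 and -0.99. In cDC2s 19 and 24 fell, 0 rose, and the medians were -0.88 and -1.61, beside -0.02 over all genes in both. Ifi44 was at 18.3 ± 4.1 CPM in cDC1s with WT, 9.01 ± 1.94 with BimS and 5.26 ± 1.3 with RIPK3 (-1.82 for RIPK3 against WT, adjusted p = 0.00102). Ifit1, which binds uncapped viral RNA, was at 42.0 ± 0.349 CPM in cDC2s with WT and 6.69 ± 1.42 with RIPK3 (-2.66, adjusted p = 1.09e-08), and Ifit3 at 27.8 ± 2.37 and 4.45 ± 1.48 (-2.66, adjusted p = 3.64e-08).

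**Figure D5:**
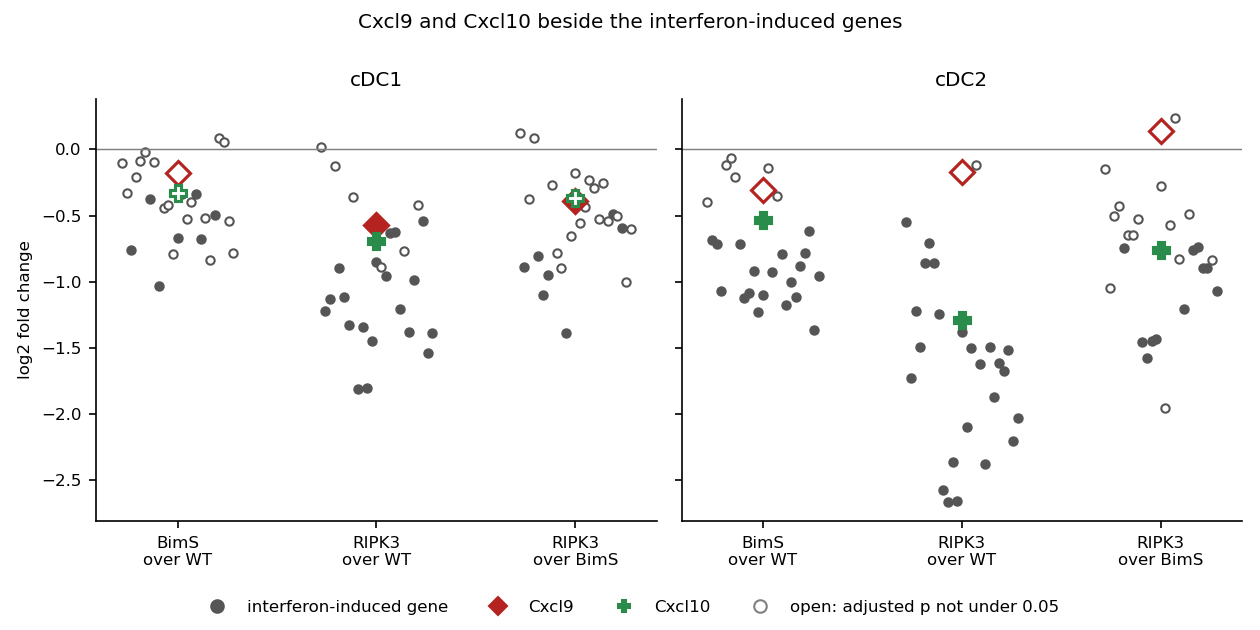
Log2 fold changes of the 25 interferon-induced genes (points) with Cxcl9 and Cxcl10 marked, for the 3 comparisons of media in cDC1s and in cDC2s, open where the adjusted p was not under 0.05. With RIPK3 over WT the points lie lowest, at medians of -0.99 in cDC1s and -1.61 in cDC2s, and Cxcl10 (-0.69 and -1.29) lies above both medians.

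Of 13 interferon receptor and JAK-STAT genes, 1 rose and 5 fell in cDC1s with BimS and 1 rose and 4 fell with RIPK3, while in cDC2s 1 rose and 3 fell with either. The gene that rose was Irf1 in all 4 comparisons, a transcription factor induced by interferon gamma that acts on Cxcl9 and Cxcl10. It was at 181 ± 4.9 CPM in cDC1s with WT, 252 ± 18.4 with BimS (0.48, adjusted p = 4.98e-09) and 245 ± 8.3 with RIPK3 (0.44, adjusted p = 2.83e-08). The Irf1 call in cDC2s with RIPK3 was lost without RIPK3 replicate 1 (0.0824) and by limma (0.316). Stat2, a part of the complex that transmits type I interferon signals, fell by 0.63 in cDC1s with RIPK3 (adjusted p = 6.06e-07) and by 0.92 in cDC2s (adjusted p = 3.87e-06). Irf7 fell in cDC2s by 1.18 with RIPK3 (adjusted p = 0.00263). Irf8, the lineage factor of cDC1s, went from 309 ± 27.7 to 184 ± 8.7 CPM with BimS and 176 ± 8.47 with RIPK3 (-0.82, adjusted p = 4.09e-13).

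Of 11 NF-κB genes, 4 fell and 0 rose in cDC1s with either dying cell, and 0 were called in cDC2s. Of 10 genes tied to control of Ccl17 and Ccl22, such as the receptors for GM-CSF and IL-4, 4 and 3 rose in cDC1s with BimS and RIPK3 and 0 fell. In cDC2s 6 and 3 rose, and 1 fell in each comparison. The gene that fell was Irf4, a factor for Ccl17 and Ccl22 transcription, from 37.0 ± 2.0 CPM to 16.5 ± 2.58 with BimS (-1.16, adjusted p = 8.71e-07) and 13.0 ± 0.571 with RIPK3 (-1.52, adjusted p = 2.42e-07). In cDC1s Irf4 was under 1 CPM (0.57 ± 0.172 with WT). Il4ra, the IL-4 receptor chain, rose in every group with dying cells, in cDC1s from 317 ± 3.18 to 455 ± 7.44 CPM with RIPK3 (0.52, adjusted p = 1.42e-11). By limma on unscaled counts that comparison was the only one in which Il4ra was called.

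Some receptors of the members are transcribed by cDCs themselves. Of 6 receptors tested in cDC1s, 2 rose with RIPK3, Ccr2 and Ccr3, and none was called with BimS. Ccr2, the receptor of Ccl2, was at 3.81 ± 0.582 CPM with WT, 3.91 ± 0.932 with BimS and 6.13 ± 1.21 with RIPK3 (0.70, adjusted p = 0.00343), a call lost without RIPK3 replicate 2 (0.0607) and with all 17 samples in 1 fit (0.0921). In cDC2s Ccr1, a receptor of Ccl3 and Ccl5, was at 6.44 ± 0.575 CPM with WT, 11.2 ± 0.51 with BimS (0.80, adjusted p = 0.000328) and 11.1 ± 0.0528 with RIPK3 (0.78, adjusted p = 0.00119), so it rose with both.

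Among 5 proteases that cut or shed the members, Dpp4 fell in all 4 comparisons. Dpp4 (CD26) trims the amino end of chemokines such as Cxcl10 and Ccl22. It was at 221 ± 8.3 CPM in cDC1s with WT, 164 ± 6.31 with BimS and 140 ± 2.52 with RIPK3 (-0.66, adjusted p = 4.77e-13), and at 70.2 ± 6.26, 45.6 ± 3.26 and 42.7 ± 1.2 in cDC2s (-0.73 with RIPK3, adjusted p = 0.00011). Adam10, the main sheddase of Cxcl16, was called higher with BimS only, by 0.17 in cDC1s (adjusted p = 0.0186) and 0.33 in cDC2s (adjusted p = 0.0337). Adam10 lost the cDC1 call without WT replicate 1 (0.0815) or 2 (0.0863) or BimS replicate 2 (0.141), with all 17 samples in 1 fit (0.17) and by limma (0.585), and the cDC2 call by limma (0.308) and without WT replicate 2 (0.117) or 3 (0.0745), BimS replicate 1 (0.177) or 2 (0.123) or RIPK3 replicate 1 (0.0576) or 2 (0.0608).

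Of the other chemokine ligands, 20 were in the count table, and those that rose were Cxcl2, Cxcl3, Cxcl5 and Ppbp, which share the neutrophil receptor Cxcr2, and Pf4. Of 14 tested in cDC1s, 5 rose and 1 fell with BimS and with RIPK3, and of 12 in cDC2s, 3 rose and 0 fell with BimS and 2 rose and 2, Ccl9 and Cx3cl1, fell with RIPK3. Ppbp, a ligand of Cxcr2, went from 0.80 ± 0.209 CPM to 21.5 ± 2.43 with BimS and 18.6 ± 2.87 with RIPK3 in cDC1s (4.73 and 4.51 on the log2 scale, adjusted p = 1.03e-19 and 4.7e-19), and Cxcl5 from 0.291 ± 0.0191 to 8.15 ± 1.63 and 6.99 ± 1.49. No member had a log2 fold change of that size between media. The ligand that fell in cDC1s was Cx3cl1, a membrane-anchored attractant of monocytes and T cells like Cxcl16 in build, from 10.1 ± 2.32 to 5.32 ± 1.19 (-0.93, adjusted p = 0.00449) and 3.37 ± 0.901 CPM (-1.57, adjusted p = 6.45e-05). Cx3cl1 fell in cDC2s with RIPK3 too (-2.00, adjusted p = 0.0393), a call lost without WT replicate 1 (0.0904) or 2 (0.108) or BimS replicate 2 (0.0612) or 3 (0.0563). Without RIPK3 replicate 2, which leaves a single RIPK3 sample, the log2 fold change was smaller, at -1.093.

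Ccr7, the receptor by which mature cDCs follow chemokines to lymph nodes, went from 550 ± 44.6 CPM to 373 ± 51 with BimS (-0.56, adjusted p = 0.0153) and 344 ± 30.2 with RIPK3 (-0.68, adjusted p = 0.00505) in cDC1s. The BimS call was lost without BimS replicate 3 (0.0616). In the same libraries 12 mature dendritic cell markers summed to 2960 to 3120 CPM with WT, 2770 to 2980 with BimS and 2830 to 3030 with RIPK3. Of the 12, 4 fell and 1 rose with either dying cell: Ccr7, Cd40 and Cd80 fell with both, Cd86 with BimS and Marcksl1 with RIPK3, and Cd274 rose from 894 ± 25.5 CPM to 1080 ± 7.64 and 1150 ± 105. At the cell surface, the paper found CCR7, CD80, CD86 and CD40 higher on cDC1s that had taken up either debris than on those that had not. That is protein compared by uptake, whereas the RNA here is of all sorted cDC1s, set against medium of live cells. The part of the mature dendritic cell markers in the difference of Ccl22 was not tested. Of 16 adherent tumor cell markers, the sum in cDC1s was 14.2 to 15.0 CPM with WT, 15.1 to 18.5 with BimS and 17.2 to 19.0 with RIPK3, and in cDC2s 81.6 to 96.4, 159 to 200 and 158 to 174. In cDC2s Thbs1 made 49.2 CPM of it with WT, 144 with BimS and 138 with RIPK3, and was the 1 of 11 markers tested that was called, higher with either dying cell. Cdh1, the next largest part there, went the other way, at 32.7, 25.6 and 20.4 CPM, and was not called. In cDC1s Tpm2 was the highest, at 6.74 CPM with WT, 7.51 with BimS and 7.84 with RIPK3, and of 15 markers tested each missed the threshold in edgeR's test, Thbs1 being the nearest (adjusted p = 0.0665 with BimS and 0.0701 with RIPK3), at median log2 fold changes of 0.15 and 0.21. Group means in cDC1s ran from 0.728 to 0.975 CPM for Krt18, highest with WT, and from 0.0489 to 0.103 for Krt8, highest with RIPK3. Other markers went either way from WT to RIPK3: Sparc (0.44 to 0.808 CPM) and Tagln (1.08 to 1.42) were higher, Cdh1 (0.339 to 0.154) and Col1a1 (0.0971 to 0.072) lower. The part of these markers in the members' differences was not tested.

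As a description over the 9 cDC1 samples, the 7784 better-expressed genes were ranked by Pearson correlation of log2 CPM with each of Ccl5, Ccl22, Cxcl9 and Cxcl16. Samples of all 3 media are pooled in these values, and samples of the same replicate number deviate together. Closest to Ccl22 were Ifi211 (r = 0.979), an interferon-inducible gene, and Cd40 (0.979), the costimulatory receptor. Nearest to Cxcl9 were Hp1bp3 (0.983) and Rasa3 (0.973), to Ccl5 Ruvbl1 (0.94) and Eif3b (0.912), and to Cxcl16 Ppp1r35 (0.95) and Plekho1 (0.944). Over the 8 cDC2 samples, Zfp770 (0.986) and Trim25 (0.984) were nearest to Ccl22, Dlst (0.987) and Ube2l3 (0.982) to Cxcl16, Agpat1 (0.982) and Slc10a3 (0.966) to Ccl5, and Mef2c (0.884) and Smpd4 (0.876) to Cxcl9.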

How the data were processed

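RNA of 17 sorted cDC samples had been sequenced by the authors as paired-end reads of 54 bases, aligned to GRCm39 with STAR 2.7.10a (per the submitters' notes) and counted per gene with gensum 0.2.1 on Ensembl 112. The deposited table used here holds raw counts. A second table, of normalized values, was not used, as it holds the same samples. Of 31239 lines, 148 without a gene identifier (0.0258 to 0.0366% of counts) were left out, and 30854 of 31091 identifiers matched GENCODE M39, which gave positions and exon lengths.

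Genes with a count in at least 0.5 of the samples of a fit were tested with edgeR 4.0.16 (R 4.3.3) in its quasi-likelihood test on TMM-scaled counts, in separate fits for cDC1s and cDC2s and in 1 fit of all samples for the cell types and interactions. A gene was called at a Benjamini-Hochberg adjusted p under 0.05 over all genes tested. The study used limma, and edgeR was taken here as the main test because it models counts, with DESeq2 1.42.0, limma 3.58.1 on log2(count + 1) with no scaling, other scaling and filters, the replicate block, all samples in 1 fit and each sample left out as alternatives. SEs are the log2 fold change divided by the root of its F. CPM values use TMM effective library sizes over all 17 samples, and 95% intervals assume a normal error. For Ccl22 they are too narrow, as its spread rests on few degrees of freedom (0.252 prior and 6 residual in cDC1s, 1.55 and 5 in cDC2s). Limits for 0 counts cover counting error only.

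Samples of the same replicate number deviated together over 7784 genes. Deviations from group means correlated over 0.1 in 9 of 9 same-numbered pairs of cDC1s (0.148 to 0.524) and 7 of 7 of cDC2s (0.288 to 0.769). With different numbers this held for 1 of 18 and 3 of 14 pairs. Across the cell types it held for 19 of 24 same-numbered pairs (-0.19 to 0.632) and 5 of 48 with different numbers. The main fits leave this pairing out, those of the cell types and interactions included, and only the replicate block uses it. In simulated counts for cDC1s with RIPK3 against WT, 186 of 200 changed genes were recovered and 3.12% of calls were false. For cDC2s with RIPK3 against WT these were 166 and 10.3%.

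Members and gene lists were chosen with earlier results of these data known. All members are named. Of other lists, up to 3 genes with the largest called changes in a comparison and the known partners of a member at 1 CPM or more are named. Some genes of the lists are not reported here. Promoters were read from the RefSeq table and matched by symbol. Tables and figures were made with Python 3.11.15, pandas 2.3.3 and matplotlib 3.10.9.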

Additional observations from a re-analysis of the deposited data

How the results depend on the processing

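Each comparison was repeated under up to 7 other settings and without each sample in turn. Of the 15 fold changes of members that were called, 11 kept their direction and their call under all of them, and the Cxcl10 gap between the cell types, Cxcl10 in cDC2s with BimS and against BimS, and Ccl22 in cDC1s with RIPK3 did not. The number of members called moved as follows. In cDC1s with BimS against WT (0 called) it was 1 with RLE scaling, 2 with no filter, 2 with limma, 5 with the replicate block and 0 to 3 without 1 sample. For cDC1s with RIPK3 against BimS (1 called) it was 2 with no filter, 3 with limma, 3 with the block and 1 to 2 without 1 sample, and for RIPK3 against WT (4 called) it was 3 with no filter, without Ccl22, 5 with limma, which added Ccl17, and 3 to 4 without 1 sample. In cDC2s, BimS against WT (1 called) gave 2 with limma, 3 with the block and 0 to 1 without 1 sample. RIPK3 against WT (1 called) gave 2 with DESeq2, 2 with filterByExpr, 3 with limma, 4 with the block, 2 with all 17 samples in 1 fit and 1 to 2 without 1 sample. RIPK3 against BimS (1 called) gave 0 with filterByExpr, 2 with limma, 3 with the block and 0 to 1 without 1 sample. The cause of these moves was not tested. The paired fit, with the replicate number as a block, kept all 15 calls of members, added those given in the report, and changed no other call of a member. Among the other named genes it newly called Ccr7 in cDC2s with RIPK3 (-0.229, adjusted p = 4.97e-06 in place of 0.133). Small log2 values turned sign. Without 1 sample, Cxcl16 in cDC1s with BimS ran from -0.078 to 0.014, Ccl4 in cDC1s with RIPK3 from -0.311 to 0.134, Cxcl9 in cDC2s with RIPK3 from -0.65 to 0.172 and the Cxcl9 interaction from -0.753 to 0.072, and Cxcl16 in cDC2s with RIPK3 was -0.045 by limma. Limma on unscaled counts moved the median of all genes by -0.17 there and by -0.12 in cDC1s with RIPK3. Of 59 called fold changes of other named genes, 48 kept their call throughout. These alternatives for other genes were chosen after seeing the data. Ccl2, Ccl3 and Ccl17 rest on few counts, which limits what can be seen of them.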
